A study of Ovis aries with 16 samples.

Results

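The 500 windows of 100 kb that held the most regions of methylated DNA in the fetal sheep genome are described here. Each fetus had a list of peaks, which are stretches of DNA enriched by a methyl-binding domain (MBD) protein. Peaks of the 16 fetuses that shared at least 1 bp were merged, and the 512238 merged stretches seen in 2 or more fetuses are the regions counted here. Chromosomes 1 to 26 were cut into 24507 full windows, each region was given to the window that held its midpoint, and the 500 windows with the highest region counts were called dense. The dense windows were 2.04% of the full windows and held 21552 regions, 4.37% of the regions in full windows. The region counts of these same libraries chose the windows, so the contrast of dense windows with the rest is a description and carries no test. Diet was not used in the choice, and the comparison between diets was tested.

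The study asked whether maternal diet alters DNA methylation in fetal longissimus dorsi (LD) muscle, the long muscle of the back. Polypay ewes were fed hay or corn over the second part of pregnancy, up to the necropsy at which LD was taken, and the corn ration contained some haylage. LD of 8 fetuses of hay-fed ewes and 8 fetuses of corn-fed ewes was profiled, with each fetus named by the sample number in its label. The ewe was the unit that was fed, and most fetuses were twins, with the 8 hay fetuses from 4 ewes and the 8 corn fetuses from 5. The labels tie no numbered sample to its dam, sex or lane, so litter could not enter a fit. Every test takes the fetuses as independent, and its p can be too small for that reason. LD was bulk tissue, in which fewer cells of a type with a methylated region and less methylation per cell cannot be told apart, and peak lists hold no expression with which muscle markers could be checked.

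In mammals most cytosines that precede a guanine (CpG sites) carry a methyl group, and methylated DNA is found over gene bodies and repeats as well as between genes. MBD proteins bind methylated CpG sites, and several sites close together bind more strongly than 1 site alone. An MBD peak therefore marks methylated DNA with a sufficient number of CpG sites, and CpG-poor DNA can be methylated without giving a peak. The genome sequence of the build used for these peaks was not used here, so CpG content and sequence of the windows were not analysed.

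The dense windows held 40 to 52 regions each, with a median of 43. Over all full windows the median was 19 and the mean was 20.1 ± 9.47 (SD), and 10 windows had no region. Most dense windows lay close to the lower limit: 13 had 40 regions, 227 had 41 or 42, 148 had 43 or 44, 89 had 45 to 47 and 23 had 48 or more. The limit fell inside a tie. In all, 181 windows had 40 regions, and the order by chromosome number kept 12 of them on chromosome 1 and 1 on chromosome 2 and left 168 out. The last 3 windows kept were chr1:271100001-271200000, chr1:274400001-274500000 and chr2:2100001-2200000, with 45.3, 47.1 and 58.2 kb under regions. The first 3 not kept were chr2:3200001-3300000, chr2:3800001-3900000 and chr2:9300001-9400000, with the same 40 regions and 64.8, 34.8 and 52.4 kb under them. Windows on both sides of the limit were thus alike in region number, and 487 windows were above the tie.

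Regions covered 25.65 to 74.0 kb of a dense window, with a median of 48.1 kb. In the other windows the median was 12.6 kb. Covered bases were counted with the region's midpoint window, so a region can reach past the window's edge and a window can total more than its own length. The windows with the most regions were not the windows with the most covered bases. The 500 windows with the most bases under regions had 71.5 to 103.5 kb and 9 to 42 regions, with a median of 25 regions. Only 2 dense windows were among them, chr3:218900001-219000000 with 41 regions and chr21:48000001-48100000 with 42 regions. By covered bases the dense windows lay between percentiles 77.7 and 98.3 of all full windows, with a median of 92.5, and 104 of the 500 were in the top 5%.

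**Figure D1:**
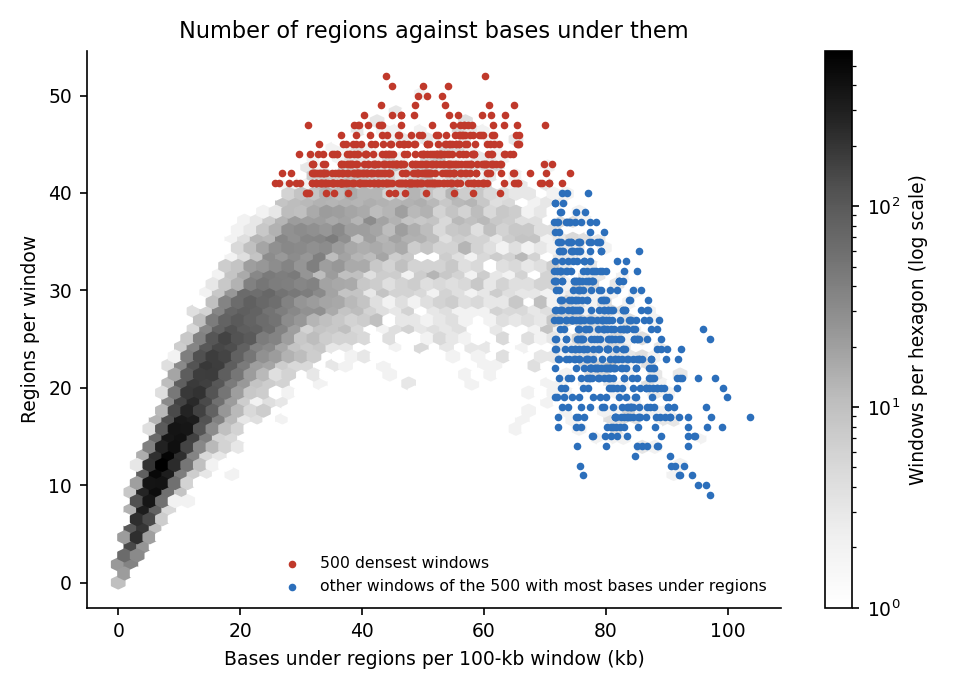
Regions per window (vertical axis) against kb under regions per 100-kb window (horizontal axis) for the 24507 full windows, with grey hexagons shaded by the number of windows on a log scale, dense windows in red and the other windows of the 500 with the most covered bases in blue. Region number rose with covered bases up to about the middle of the range and was lower again in the most covered windows, so the red and blue windows share only 2 members.

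The share of windows that were dense rose with covered bases and then fell. No dense window had under 20 kb under regions. Between 20 and 30 kb, 8 of 3235 windows (0.247%) were dense, and between 30 and 40 kb 119 of 1685 (7.06%) were. The share was 16.95% between 40 and 50 kb and reached 23.2% between 50 and 60 kb, where 156 of 672 windows were dense. Above this it was 11.2% between 60 and 70 kb and 2.09% between 70 and 80 kb, and none of the 228 windows above 80 kb was dense. In those most covered windows the median number of regions was 21. Peaks that share at least 1 bp are merged into 1 region, and the part that merging plays in the lower counts was not tested.

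In dense windows regions were somewhat wider and lay closer together than in other windows. Member regions had a median width of 897 bp (quartiles 417 and 1408 bp, range 105 to 11513 bp), and regions in other windows had a median of 764 bp (quartiles 337 and 1014 bp). The gap between neighbouring member regions had a median of 744 bp, against 1837 bp in the other windows. Gaps under 1 kb made up 59.7% of gaps in dense windows and 36.1% in the others. The windows were chosen by region count, and more regions in 100 kb leave shorter gaps, so the spacing is no separate finding. Broad regions of at least 5 kb were 167 of the 21552 members (0.775%) and 5300 of the 471277 other regions (1.12%). The widest member was chr3:6391233-6402745, 11513 bp long, and it was present in all 16 fetuses.

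Member regions recurred in more fetuses than other regions. A member had a peak in a median of 11 of the 16 fetuses, and a region of the other windows in a median of 8. Regions with a peak in every fetus were 5672 members (26.3%), against 17.05% of other regions. Members seen in only 2 or 3 fetuses were 4602 (21.4%), against 25.97% of the others. Width went with recurrence in both sets. Merging a further peak leaves a region as wide as before or widens it, and the part this plays was not tested. The median width of members was 272 bp in 2 or 3 fetuses, 582.5 bp in 4 to 7, 874.5 bp in 8 to 12, 1118 bp in 13 to 15 and 1833.5 bp in all 16. Merged regions seen in 1 fetus did not count toward the windows, and they were 5153 of 26705 merged regions in dense windows (19.3%) and 27.7% elsewhere.

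**Figure D2:**
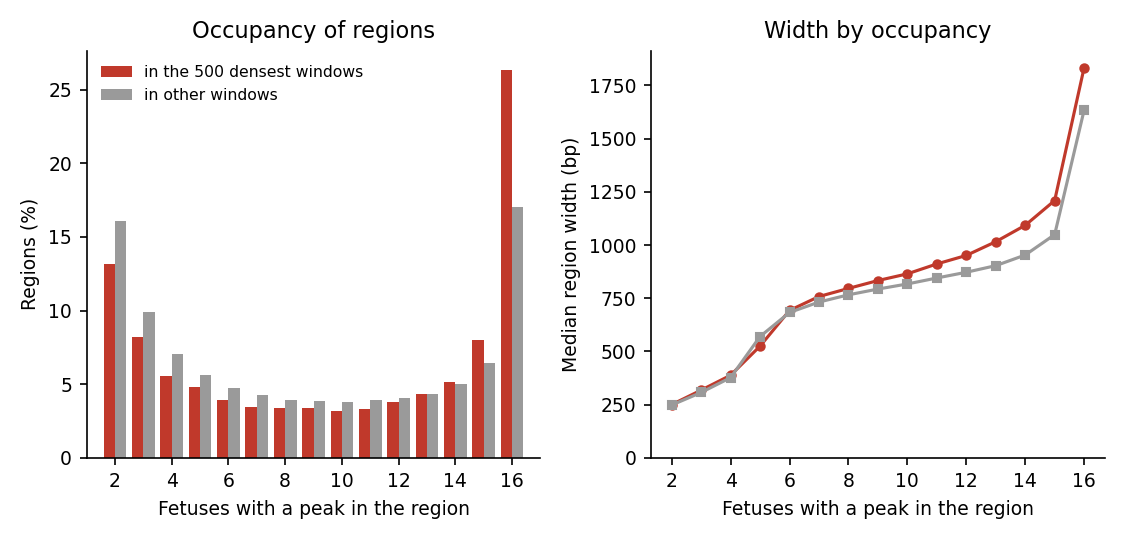
Share of regions in percent (left) and median region width in bp (right) by the number of fetuses with a peak in the region, for the 21552 member regions in red and the 471277 regions of other windows in grey. Members were more often present in all 16 fetuses (26.3% against 17.05%) and less often in 2 or 3, and their width rose from 272 bp in 2 or 3 fetuses to 1833.5 bp in all 16.

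Dense windows differed among themselves in how much of their count came from recurrent regions. Regions present in every fetus numbered 2 to 26 per dense window with a median of 11, and regions of 2 or 3 fetuses numbered 2 to 21 with a median of 9. The 500 windows were split by covered bases into 4 sets of 125. The set with 25.65 to 39.7 kb had a median of 7 regions in every fetus and 11 in 2 or 3 fetuses. The set with 55.1 to 74.0 kb had medians of 16 and 8. The mean number of peaks per fetus and window rose from 30.5 in the least covered set through 37.1 and 42.2 to 47.99 in the most covered. The median region count was 42 in the least covered set and 43 in the other 3. The median of the windows' median region widths was 782.5 bp in the least covered set and 1069.5 bp in the most covered. Covered bases are the summed widths of a window's regions. At like region counts the split itself therefore gives the most covered set wider regions. Regions present in every fetus were also the widest, so their number is not independent of the split either.

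Dense windows lay preferentially toward the ends of chromosomes. With each chromosome cut into 10 equal parts, 188 of 2451 windows (7.67%) in the last part were dense and 83 of 2451 (3.39%) in the first, against 11 windows (0.448%) in part 6. In the last 5 Mb of the chromosomes, 117 of 1300 windows (9%) were dense, and in the first 5 Mb 45 of 1300 (3.46%). Away from both ends, 338 of 21907 windows (1.54%) were dense. The outermost 2 Mb held smaller shares than the outermost 5 Mb, with 26 of 520 windows (5%) dense at the far end and 11 of 520 (2.12%) at the start. Sheep chromosomes 1 to 3 have 2 arms, while the others have their centromere near 1 end. On chromosomes 4 to 26 the last 5 Mb had 102 of 1150 windows dense (8.87%) and the first 5 Mb 32 of 1150 (2.78%). On chromosomes 1 to 3 the shares were 15 of 150 (10%) and 13 of 150 (8.67%). These rested mainly on chromosome 1, with 14 dense windows in its last 5 Mb and 7 in its first. Chromosome 2 had 1 and 5, and chromosome 3 had 0 and 1. A dense window occurred in the last 5 Mb of 24 of the 26 chromosomes and in the first 5 Mb of 12.

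Chromosome 1 held the most dense windows (69, of which 57 were above the tie), followed by chromosomes 3 (35), 2 (32), 10 (27) and 13 (27). These include the longest chromosomes. By share of their own windows, chromosomes 25 (22 of 453, 4.86%), 26 (17 of 440, 3.86%) and 11 (21 of 622, 3.38%) led. The tie order bears on these shares, since it left out windows with 40 regions on chromosome 2 and later ones only. With all 668 windows of 40 or more regions, chromosomes 25 (5.96%), 14 (4.78%) and 10 (4.63%) led, and chromosome 26 had 4.55% and chromosome 11 4.34%. No chromosome was without a dense window, and the lowest shares were on chromosomes 6 (9 of 1170, 0.769%) and 24 (4 of 420, 0.952%). With all windows of 40 or more regions chromosome 6 stayed at 0.769%, while chromosome 24 had 8 windows (1.90%) and was no longer among the lowest 2. Of the 500 most covered windows, chromosome 24 had 15 (3.57% of its windows) and chromosome 25 had 1 (0.221%).

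**Figure D3:**
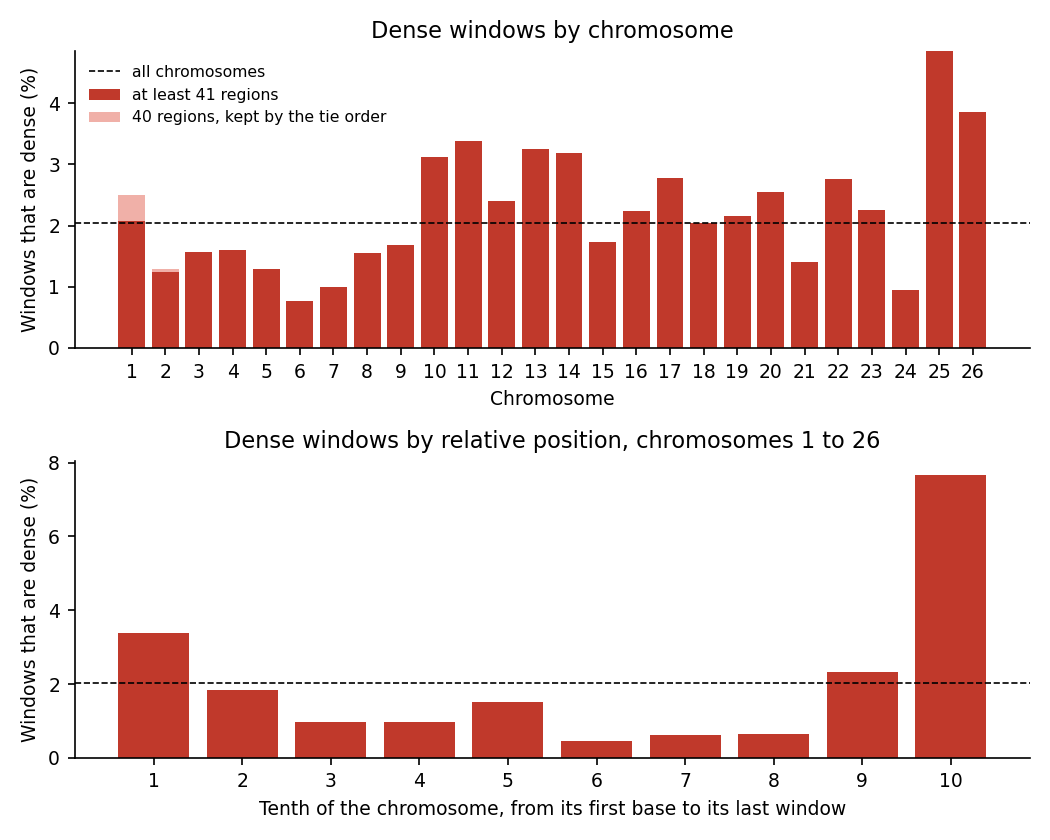
Percent of full windows that were dense by chromosome (top) and by relative position in 10 equal parts from the first base to the last window, chromosomes 1 to 26 together (bottom), with a dashed line at the overall 2.04%. Pale bar parts are windows with 40 regions that the tie order kept, and the last part stands at 7.67%, the highest of the 10.

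Most dense windows stood alone. They formed 425 runs of adjacent windows, of which 361 were a single window, 54 were pairs, 9 were runs of 3 and 1 was a run of 4. The longest run was chr13:79800001-80200000, whose 4 windows held 41, 44, 48 and 44 regions. Windows that touched a dense window without being dense still had many regions, with a median of 33 (quartiles 29 and 37, 848 windows). The densest stretch by leading windows was on chromosome 1, where 4 of the 10 densest windows lay within 500 kb. The windows from 122100001, 122200001, 122400001 and 122500001 had 51, 49, 50 and 51 regions, and the window between them from 122300001 had 38. The flanking windows from 122000001 and 122600001 had 26 and 33 regions. In blocks of 1 Mb, chr1:274000001-275000000 held the most dense windows, 6 of 10, and 12 blocks held 4 or more.

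The window chr3:210400001-210500000 had 52 regions, 19 of them in every fetus, over 60.2 kb. Its peak number per fetus was lowest at 36, had a median of 50.5 and was highest at 68 in the hay group, and was 44, 49 and 65 in the corn group. The window chr7:13400001-13500000 also had 52 regions, but 9 in every fetus and 19 in 2 or 3 fetuses, over 43.9 kb. Its peak number was 17, 37 and 55 (lowest, median, highest) in hay and 25, 34.5 and 47 in corn. The window with more recurrent regions had more peaks in every summary, and in both windows the diets overlapped.

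The other 8 of the 10 densest windows were chr1:8500001-8600000 and chr1:122100001-122200000 with 51 regions, chr1:122500001-122600000 with 51, chr1:122400001-122500000, chr16:900001-1000000 and chr18:60200001-60300000 with 50, and chr1:122200001-122300000 and chr2:234900001-235000000 with 49. Regions covered 43.04 to 54.1 kb of them. In chr16:900001-1000000 the peak number was 35, 45.5 and 63 (lowest, median, highest) in hay and 44, 46 and 53 in corn. In chr2:234900001-235000000 it was 18, 39.5 and 54 in hay and 23, 31.5 and 55 in corn. Hay and corn fetuses overlapped in each of these windows too.

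Every fetus showed the excess of peaks in dense windows by its own list. The libraries differed in yield, with 251639 (hay fetus 11) to 506088 (hay fetus 15) peaks in full windows and a median of 379685. The read depth is unknown from peak lists. A fetus had 27.3 to 49.3 peaks per dense window and 9.91 to 20.1 per other window, and the ratio of the means was 2.41 to 2.76 over the 16 fetuses. Since these libraries also chose the windows, windows were chosen again from 1 diet and read in the fetuses of the other. The 500 windows with the most regions from hay fetuses alone had 41.7 ± 5.71 peaks (SD, n = 8) in corn fetuses, against 15.6 ± 2.71 over all windows. The 500 from corn fetuses alone had 44.9 ± 6.90 peaks (SD, n = 8) in hay fetuses, against 16.0 ± 3.496. The excess was present in 8 of 8 fetuses each time, at 2.45 to 2.89 times and 2.57 to 3.22 times. The hay and corn choices shared 280 windows (56% of each), and no comparison value for this overlap was computed. Of the hay choice 298 windows (59.6%) were dense windows, of the corn choice 258 (51.6%), and 197 were in both choices and dense. The excess was thus measured in fetuses that had not chosen the windows. It was measured for these new choices and not for the 500 dense windows as a set.

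A single library ranked the windows differently from the pooled regions. Of a fetus's own 500 windows with the most peaks, 26 (hay fetus 12) to 155 (corn fetus 7) were dense windows, with a median of 77. Peaks of 1 fetus can be split within a region, and the number of peaks per occupied member region was 1.36 to 1.601.

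Fetuses with more peaks had a smaller share of them in dense windows, given here as a description. Over the 16 fetuses Pearson's r was -0.860 and Spearman's rho was -0.862. Without hay fetuses 11 and 15, which had the fewest and most peaks, r was -0.793 and rho -0.798. Within the hay group r was -0.949 and within the corn group -0.810 (n = 8 each). The total number of peaks is the denominator of the share, so both axes hold the same quantity, and the same libraries chose the windows, so no p is given. By bases in place of peaks r was 0.0632 and rho 0.0618, and without the same 2 fetuses r was -0.1496. The fall with the number of peaks was thus seen by peak number and not by bases.

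None of the 8 summaries per fetus over the dense windows passed the test between diets. Dense windows held 5.16 ± 0.211% of the peaks of hay fetuses and 5.08 ± 0.167% of those of corn fetuses (SD, n = 8 each; exact permutation p = 0.417, adjusted p = 0.668). The share ran from 4.87% to 5.43% (median 5.13%) in hay and from 4.79% to 5.36% (median 5.07%) in corn, so the groups overlapped over nearly their whole range. The number of peaks in dense windows was 20065 ± 3704 in hay and 19378 ± 2852 in corn (exact permutation p = 0.679, adjusted p = 0.904). The share of peak bases was 5.33 ± 0.147% and 5.31 ± 0.0907% (exact permutation p = 0.791, adjusted p = 0.904). All tests were two-sided, over all 12870 splits into 8 and 8, with a smallest possible p of 0.0001554.

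The mean occupancy of member regions was alike under both diets, with a wide spread between fetuses. A peak was present in 61.6 ± 11.3% of the member regions in hay fetuses and 61.6 ± 7.58% in corn fetuses (exact permutation p = 0.989, adjusted p = 0.989, n = 8 each). The hay fetuses ran from 42.9% to 74.97% with a median of 64.9%, and the corn fetuses from 52.8% to 75.6% with a median of 61.0%. Relative to the other regions of the same fetus, members were occupied more in all 16 fetuses, by 7.83 ± 1.62 points in hay and 6.87 ± 1.24 points in corn (exact permutation p = 0.222, adjusted p = 0.591). The points are percentage points of regions with a peak.

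Peaks were narrower on average in hay fetuses, in dense windows and in the other windows, but in dense windows not beyond the spread. The median width was 346 ± 100 bp in hay and 458.5 ± 141 bp in corn (exact permutation p = 0.0813, adjusted p = 0.374, n = 8 each). Hay fetuses ran from 253 to 572 bp with a median of 328.5 bp, and corn fetuses from 258 to 642 bp with a median of 399.5 bp. Hay fetus 5 was the highest of its group at 572 bp and corn fetus 4 the lowest of its group at 258 bp. The unadjusted p fell under 0.05 when either was left out, to 0.0216 without hay fetus 5 and 0.0362 without corn fetus 4 (exact permutation tests). With other fetuses left out in turn, the exact permutation p for width reached 0.168. The median peak score, the negative log10 of the p-value of a peak, was 1.4997 ± 0.112 in hay and 1.61 ± 0.138 in corn (exact permutation p = 0.0936, adjusted p = 0.374). Its unadjusted exact permutation p was 0.0227 without hay fetus 5 and 0.0210 without corn fetus 4, and reached 0.183 with other fetuses left out. In the other windows the median width was 282 ± 35.8 bp in hay and 348 ± 88.7 bp in corn. The median score there was 1.45 ± 0.0843 in hay and 1.54 ± 0.114 in corn. Hay was thus lower on average outside the dense windows too, which was not tested. The ratio of the median width in dense windows to that in other windows was 1.21 ± 0.194 in hay and 1.30 ± 0.144 in corn (exact permutation p = 0.319, adjusted p = 0.638). Without hay fetus 5 this ratio differed by -0.154 (exact permutation p = 0.0221 before adjustment). With other fetuses left out in turn, its exact permutation p reached 0.557.

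**Figure D4:**
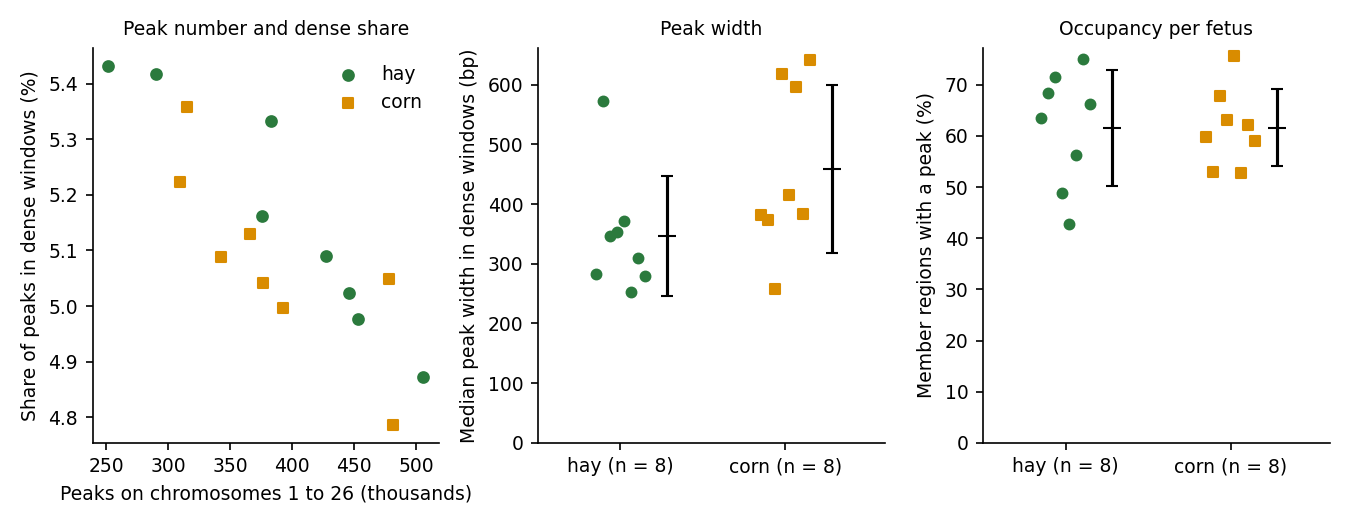
Values of the 8 hay (green circles) and 8 corn fetuses (orange squares): percent of peaks in dense windows against the number of peaks on chromosomes 1 to 26 in units of 1000 (left), median peak width in dense windows in bp (middle) and percent of the 21552 member regions with a peak (right), with bars at the mean ± SD. The share fell from 5.43% in the fetus with the fewest peaks to 4.87% in the fetus with the most, and hay and corn fetuses overlapped in all 3 plots.

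No dense window passed the test between diets. Peak number per window, scaled to the median total of the 16 fetuses, was fitted with limma over 24447 windows, among them all 500 dense ones. At an adjusted p under 0.1, 0 of the 500 dense windows were called, and 0% of all windows tested were. The smallest adjusted p of a dense window was 0.977. At an unadjusted p under 0.05, 10 dense windows (2%) were below the limit, 7 higher in hay (1.4%) and 3 higher in corn (0.6%). Over all windows tested 4.79% were below it, 1.34% higher in hay and 3.46% higher in corn. The count of dense windows was 6 (1.2%) without corn fetus 1, 2 or 14, against 3.99%, 5.22% and 4.05% of all windows in turn. It was 15 (3%) without corn fetus 4, against 5.78%. Without scaling it was 0 (0%, against 1.15% of all windows), and without the trended prior 1 (0.2%, against 4.90%). By bases under peaks it was 4 (0.8%, against 3.19%), and without weak peaks 20 (4%, against 5.63%). In 0 dense windows did every fetus of 1 diet exceed every fetus of the other, and over all windows this share was 0.00409% in each direction.

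Differences between diets were small in dense windows. The log2 difference in scaled peak number (hay minus corn) had a median of 0.016 over the dense windows, with quartiles -0.034 and 0.073 and a range from -0.28 to 0.25. Over all windows tested the median was -0.027, with quartiles -0.149 and 0.078. Hay fetuses had the higher mean in 292 of the 500 dense windows (58.4%) and in 43.2% of all windows. Dense windows held more peaks, and the median SD of log2 scaled peak number within a diet was 0.180 in dense windows and 0.322 over all windows.

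**Figure D5:**
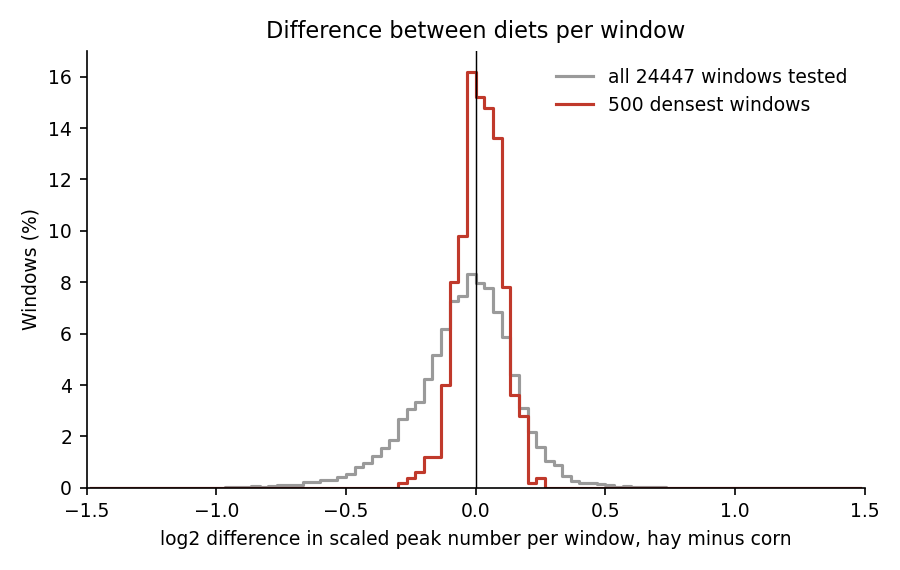
Distribution of the log2 difference between diets in scaled peak number per window (hay minus corn, horizontal axis), as percent of windows (vertical axis), for the 500 dense windows in red and all 24447 windows tested in grey. The dense windows lie between -0.28 and 0.25, and the grey curve is wider and has its median at -0.027.

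The dense windows with the smallest limma p are given as values, since none passed. Higher in hay were chr9:90800001-90900000 with 42.1 ± 4.58 scaled peaks in hay and 35.5 ± 3.37 in corn (log2 difference 0.24), chr24:38000001-38100000 with 49.9 ± 6.73 and 43.1 ± 2.92, and chr1:268100001-268200000 with 29.0 ± 5.74 and 23.9 ± 2.07. Higher in corn were chr19:15200001-15300000 with 34.8 ± 5.64 in hay and 41.1 ± 5.84 in corn (log2 difference -0.23), chr26:13600001-13700000 with 23.2 ± 5.83 and 28.1 ± 4.82, and chr2:42600001-42700000 with 27.5 ± 6.14 and 32.5 ± 4.77. The unadjusted limma p ran from 0.0134 to 0.0472 over the 6, and the adjusted limma p was 0.977 for each. In chr9:90800001-90900000 the unscaled peak number was 30, 45.5 and 55 (lowest, median, highest) in hay and 28, 36 and 48 in corn, so that the groups overlapped. In chr19:15200001-15300000 it was 22, 35.5 and 47 in hay and 36, 40.5 and 46 in corn, with both the lowest and the highest fetus in the hay group.

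Nor did a member region pass the test between diets. The score of each region in each fetus, 0 where it had no peak, was scaled and fitted with limma over the 512238 regions. At an adjusted p under 0.1, 0 of the 21552 members were called, against 0.000586% of all regions (0.000195% higher in hay and 0.00039% higher in corn), and the smallest adjusted p of a member was 0.919. At an unadjusted p under 0.05, 604 members (2.80%) were below the limit, 314 higher in hay (1.46%) and 290 higher in corn (1.35%). Over all regions these shares were 3.16%, 1.43% and 1.73%. The count of members was 1113 without hay fetus 11 (5.16%, against 5.26% of all regions). Without scaling it was 1193 (5.54%, against 5.68% of all regions). The median log2 difference was 0.020 over members and 0.016 over all regions, and the hay mean was the higher in 55.4% of members and 53.9% of all regions. Without scaling the medians were -0.064 and -0.047 and the shares 38.4% and 40.4%, so the side on which most regions lay depended on the scaling.

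Presence and absence of peaks were also counted between diets. A peak was present in more hay than corn fetuses for 5788 members (26.9%, against 28.9% of all regions) and in more corn than hay fetuses for 6130 (28.4%, against 32.6%). A peak in at least 7 hay and at most 1 corn fetuses occurred in 0 members (0.00351% of all regions), and the opposite in 2 members (0.0332% of all regions).

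The member with the smallest p was chr13:9865160-9868365, 3206 bp long, with a peak in every fetus. Its scaled score was 2.49, 3.51 and 8.73 (lowest, median, highest) in hay and 3.08, 5.63 and 10.8 in corn. The corn fetuses were higher on the whole, with overlap, and the log2 difference was -0.54. The unadjusted limma p was 0.000151 and the adjusted limma p was 0.919. The limma adjusted p was 0.0286 without scaling and 0.0158 without hay fetus 11, so this region was called under those settings and not otherwise.

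The next 4 members by p were not present in all fetuses. The region chr8:10230094-10230907 was occupied in 4 hay and 8 corn fetuses, and chr5:20639330-20640503 likewise in 4 and 8. The region chr3:102220808-102221691 was occupied in 8 hay and 4 corn fetuses, and chr1:274688225-274689586 in 8 and 3. Their unadjusted limma p ran from 0.000725 to 0.00142 with an adjusted p of 0.919 for each. In chr8:10230094-10230907 the scaled score was 0, 0.635 and 1.71 (lowest, median, highest) in hay and 1.24, 1.91 and 3.23 in corn. In chr1:274688225-274689586 it was 1.109, 1.74 and 3.74 in hay and 0, 0 and 1.79 in corn. Both regions overlapped between diets. The widest member, chr3:6391233-6402745, had scaled scores of 3.03, 4.41 and 6.63 in hay and 3.51, 4.58 and 6.11 in corn (log2 difference -0.067), and its unadjusted limma p was 0.561.

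Genes could be placed only where the study's list of diet regions names a gene with a position on this build, and that list was chosen on these samples. TBC1D5, which encodes a Rab GTPase-activating protein that acts in endosomal sorting and autophagy, overlapped the dense windows chr1:272300001-272400000 (41 regions) and chr1:272400001-272500000 (46 regions). The first held 44.4 ± 3.79 scaled peaks in hay and 41.7 ± 2.91 in corn (SD, n = 8 each; log2 difference 0.086), and the second 49.3 ± 7.87 and 52.4 ± 4.12 (log2 difference -0.097). The small differences were of opposite sign in these neighbouring windows, and neither passed the test (limma adjusted p = 0.979 in the first). The listed diet region in TBC1D5 overlapped the member chr1:272395666-272396292 and reached past its end. This member had a peak in 3 hay and 0 corn fetuses. Its unadjusted limma p was 0.0498 and its adjusted limma p 0.919. The hay fetuses with a peak were 3, 15 and 16, with scaled scores of 1.84, 1.45 and 1.70. ENSOARG00000025638, a gene for a long intergenic noncoding RNA, reached into chr1:261700001-261800000, 1 of the windows with 40 regions that the tie order kept. The larger part of the gene and its listed diet region lay in the next window, which was not dense. In the dense window the log2 difference in scaled peak number was -0.084 (limma adjusted p = 0.982).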

How the data were processed

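MBD-enriched DNA of 16 fetal LD samples was sequenced. Per the labels and methods, the authors used Trimmomatic 0.33 for trimming, BWA 0.7.15 for alignment to Oar_v3.1, Picard 1.107 to remove duplicates and ChIPseeqer for peaks, fetus by fetus. Each deposited peak list gives chromosome, start, end and a value taken to be a p-value. That unit rests on the values, which reach from 0 to 0.135, and no file header names them. The score was its -log10, and 1315 zeros were replaced by 1e-100. The lists hold no read counts, so depth is unknown, no counting interval is given, and the score stood in for the study's read-based test.

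Peaks sharing 1 bp were merged, and regions with a peak in 2 or more fetuses were kept. Of these, 19048 on chromosome X and 361 in partial last windows lay outside the full windows. Windows, regions and chromosomes named in the text follow fixed ranks (10 densest windows, 3 on each side of the limit, 3 smallest p in each direction, the longest run, 5 smallest p regions, the widest region, 5 chromosomes with the most and 3 with the largest share). Chromosomes 6 and 24, the chromosome 1 stretch, the 1-Mb block and the 2 windows shared with the most covered were picked after seeing values. The windows and lists were chosen with earlier results of these data known.

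The correlation of total peaks with the dense share is given without its permutation p, since both hold the same total. Single values per fetus were compared by exact two-sided permutation tests with Benjamini-Hochberg adjustment over 8. Regions and windows were fitted with limma 3.58.1 (R 4.3.3, trended prior) on log2(x + 1) with adjustment over all rows and a limit of 0.1. Window peak numbers were scaled to the median total, and windows with a mean under 1 peak (60) were left out. Region scores were divided by median-ratio factors of 0.765 to 1.38 from 88488 regions present in every fetus. A fold difference on the log2(x + 1) scale is smaller than the true one at low values. On simulated window data with 200 of 24447 windows changed by a fold of 2, the window fit recovered 83% and 8.791% of its calls were false. The simulated counts were Poisson draws without litter, and the changed windows were picked from all windows. Dense windows differed by -0.28 to 0.25 in log2, less than this fold, so the 83% does not hold for such differences. Analyses ran in Python 3.11.15 with numpy 2.4.6, scipy 1.17.1 and pandas 2.3.3. Alternatives covered weak peaks, the fetuses needed, window grid, number and ranking, scaling, pseudocount, filter, variance model and each fetus left out. Tied windows and windows chosen from 1 diet were added after seeing the data.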

Additional observations from a re-analysis of the deposited data

Results flagged for a closer look

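In 12 of 68 groups of 8 fetuses the highest or lowest fetus stood far from its nearest neighbour relative to the group's range (Dixon's criterion), and chance flags about 1 in 20 groups. Hay fetus 5 was the highest hay fetus in 5 of them: 5.66% of peak bases in dense windows, a median peak width of 572 bp there, a median score of 1.73, occupancy of members 11.5 points above that of other regions and a ratio of median widths of 1.66. These summaries come from the same peaks and are not independent. The effect of leaving this fetus out on width, score and ratio is given with those results.

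The other 7 were scaled peak numbers in single windows. Hay fetus 11, the library with the fewest peaks, was the highest hay fetus in chr1:122100001-122200000 (57.3 scaled peaks), chr13:79800001-79900000 (51.3) and chr1:272400001-272500000 (66.4). Corn fetus 9 was the lowest in chr1:122500001-122600000 (27.01) and the highest in chr1:272300001-272400000 (47.9). Corn fetus 4 was the highest in chr2:234900001-235000000 (43.7), and corn fetus 7 the lowest in chr13:80100001-80200000 (37.1). The part that library yield plays in these values was not tested.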

How the results depend on the processing

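No paired analysis was possible because the sample numbers run once through both diets and no number is shared between hay and corn fetuses. The windows themselves depended on how they were chosen. Of the 500 dense windows, 307 (61.4%) were chosen again when peaks under the 25th percentile of score (1.19) were dropped, 335 (67%) when regions needed 3 fetuses, and 2 when windows were ranked by covered bases; with a grid shifted by 50 kb, 299 (59.8%) overlapped a window chosen then.

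Some differences between diets (hay minus corn) changed sign. The share of member regions with a peak became 0.317 points with the 250 densest windows. The ratio of median widths became 0.0759 without weak peaks and 0.0143 with the most covered windows. In none of these did a test pass. The log2 difference of chr19:15200001-15300000 went from -0.23 to 0.042 without weak peaks. The correlation of total peaks with the dense share became 0.0632 when bases replaced peaks. The causes were not tested.

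With each fetus left out in turn, the difference ranged from 0.0363 to 0.121 points for the share of peaks, 31.8 to 1601 for their number, -0.0284 to 0.0441 points for the share of bases, -144.5 to -86.0 bp for width, -0.148 to -0.0818 for score, -1.97 to 2.61 points for member regions with a peak, 0.435 to 1.23 points for their excess over other regions and -0.154 to -0.0552 for the ratio of widths. Between 0 and 1 member regions and 0 dense windows were called by limma. The region chr13:9865160-9868365 was the 1 called, at -0.72 without scaling and -0.68 without hay fetus 11. Over all regions limma called 3, and 46 without scaling, 11 with a pseudocount of 5 1 with 3 fetuses needed and 1 to 53 with each fetus left out, the most without hay fetus 11 (53) and corn fetus 4 (39). Keeping only the 487 windows above the tie, or all 668 with 40 or more regions, changed no direction or call. Peak lists give no read depth, so absence of a peak is not absence of methylation.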
